A study of Mus musculus with 5 samples.

Results

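The 40 genes described here encode nuclear subunits of the mitochondrial respiratory chain and ATP synthase, chosen by name from the 5 complexes that carry out oxidative phosphorylation. All 40 were measured, each by 1 probe set, among 19505 genes on the arrays. They comprise 18 subunits of complex I, 4 of complex II, 6 of complex III, 7 of complex IV and 5 of complex V. Expression was profiled on 5 whole-transcript arrays of tumor-associated macrophages from C57BL/6 mice bearing B16-F10 tumours, a mouse melanoma line placed under the skin. Per the labels, 3 arrays held RNA of mice lacking MyD88 (MyD88-ko), an adaptor protein used by Toll-like receptors and the receptors of IL-1 and its relatives, and 2 held RNA of wild-type (WT) mice. Mice of both groups were 6 to 12 weeks old, of either sex, carried the tumour and received no other treatment that the labels name. At day 15 cells that carried CD45, F4/80 and CD11b but not NK1.1, B220 or CD3 were sorted. The growth protocol gives the spleen as the organ sorted, although every sample is labelled as tumor-associated macrophages. The labels name neither the deleted exons of Myd88 nor whether each array came from its own mouse, so the spread behind each p-value is that of these arrays and may be technical.

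Electrons enter the chain at complex I from NADH and at complex II from succinate, and pass through ubiquinone, complex III and cytochrome c to complex IV, which reduces oxygen. Complexes I, III and IV pump protons, and complex V uses the proton gradient to make ATP. In macrophages the chain is known both for supplying ATP and for signalling in inflammation: cells activated through Toll-like receptors lower their respiration and rely more on glycolysis, and complexes I and II are sources of mitochondrial oxygen radicals. The comparison asked whether transcripts of these subunits differed between macrophages with and without MyD88.

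No subunit passed the test, and no difference reached a log2 change of 1. With limma and Benjamini-Hochberg adjustment over all genes, 0 of 40 subunits had an adjusted p under 0.05, against 0.19% of all genes (0.00513% higher and 0.185% lower), and the lowest adjusted p of a subunit was 0.204. At an unadjusted limma p under 0.05, 3 subunits were higher in MyD88-ko, against 6.16% of all genes, and 2 were lower, against 6.39%. The MyD88-ko minus WT differences of the subunits ran from -0.67 to 0.48 on the log2 scale, and 21 of the 40 were smaller than 0.2 in size. Their median size was 0.19, larger than the 0.14 over all genes. For 38 of the 40, the 95% interval of the difference lay within a log2 change of 1 in either direction. The other two, Ndufs4 and Cox6c, had intervals of -1.34 to -0.0046 and -1.10 to -0.19.

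Most subunits had a slightly higher mean in MyD88-ko. Of the 40, 26 had a positive difference (65%, against 53.1% of all genes) and the median was 0.12, against 0.02 over all genes. The MyD88-ko arrays lay wholly above the WT arrays for 11 subunits (27.5%, against 14.8% of all genes) and wholly below them for 4 (10%, against 12.9%). Among the 2992 genes above the background limit on every array, both kinds of separation were more frequent than over all genes, at 22.2% above and 25.2% below. The limit, set on each array at the 95th percentile of its negative controls, lay between 6.55 and 6.96. On every array 22 of the 40 subunits were above it, and 11 were above it on none. Cyc1 and Sdha, which respiring cells need, lay under the limit on all 5 arrays, so a value under it is not read as absence. Why they were this low was not tested. Of the 22 bright subunits, 36.4% were wholly above and 13.6% wholly below WT. Their median difference was 0.10 with 68.2% positive, against -0.0081 and 48.6% over the 2992 bright genes.

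**Figure D1:**
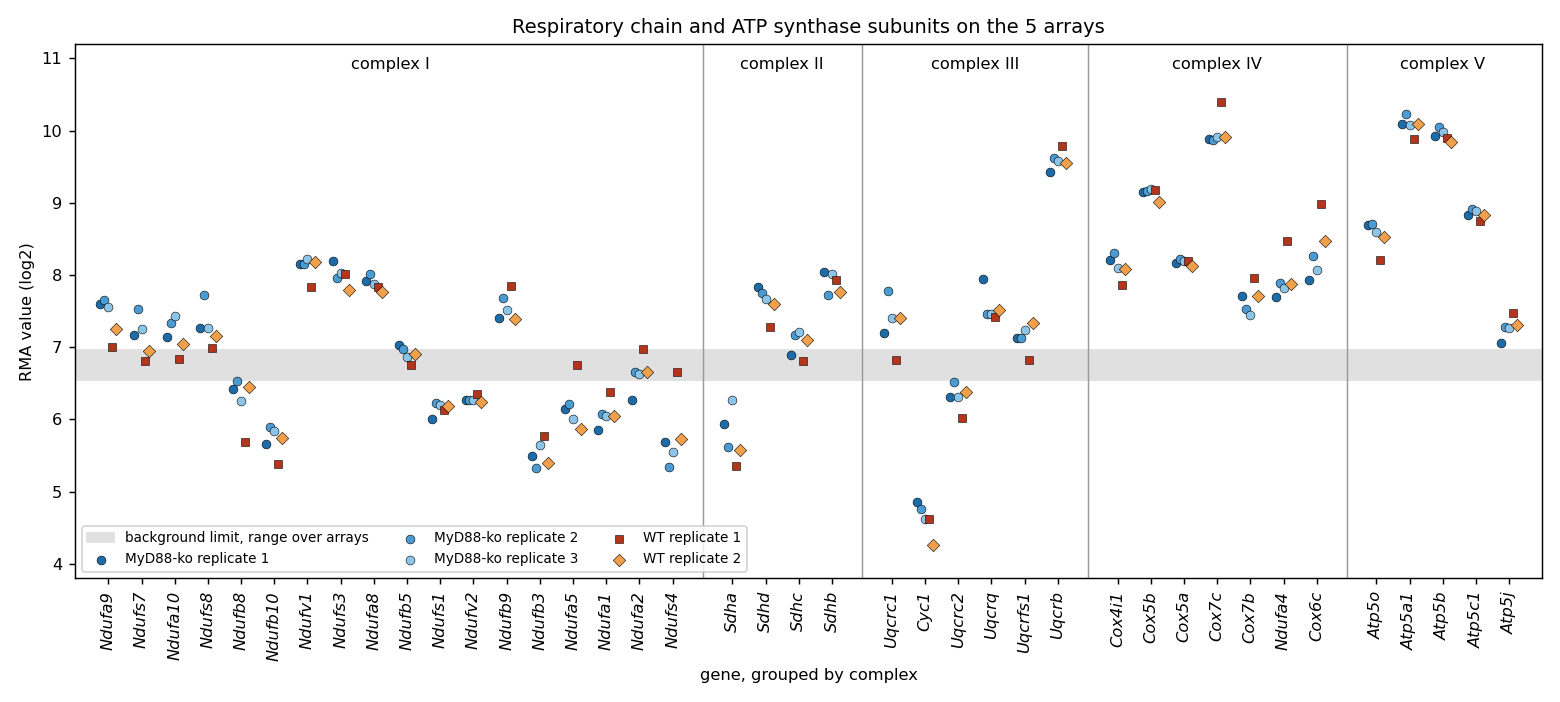
RMA value (log2) of each of the 40 subunits on each array, grouped by complex and ordered by difference within it. Blue circles are the 3 MyD88-ko arrays, the red square is WT replicate 1, the orange diamond is WT replicate 2, and the grey band is the background limit, 6.55 to 6.96 over the arrays. WT replicate 1 is the lowest point for 19 subunits and the highest for 13.

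WT replicate 1 was often the highest or the lowest of the 5 arrays for these genes. Among the 26 subunits with a positive difference it was the lowest of the 5 arrays for 19, and among the 14 with a negative difference it was the highest for 13. Over all genes the same shares were 44.5% of those with a positive difference and 48.4% of those with a negative one. Bright genes in general shared part of this: among those above the limit on every array, WT replicate 1 was lowest for 38% and highest for 27.6%, against 40.9% and 31.8% of the 22 bright subunits. WT replicate 1 lay inside the MyD88-ko range for 6 of the 40 subunits, against 40.5% of all genes. For WT replicate 2 the count was 17, near the 46.6% of all genes. For 27 of the 40 subunits the gap between the WT arrays was larger than the difference between the group means, which held for 56.4% of all genes. Without WT replicate 1 the median difference of the 40 was 0.05, with 26 still positive, and at an unadjusted limma p under 0.05 there were 2 higher subunits and 0 lower ones, against 1875 of 19505 genes in either direction. Without WT replicate 2 there were 8 higher and 6 lower ones, against 3762 of 19505.

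Cell type markers also differed between the arrays. Of the 12 macrophage markers listed, 10 were measured, 8 of them above the limit on all arrays, and their summed signal ran from 13.41 to 13.55 (log2) in MyD88-ko and from 13.06 to 13.28 in WT. On WT replicate 1 these 10 markers lay a median of 0.63 below their own mean over arrays. Of 6 markers of red pulp macrophages of the spleen, 1 was above the limit on all arrays and 2 (Spic and Cd5l) on none. Their summed signal ran from 11.72 to 12.00 in MyD88-ko and from 11.27 to 12.08 in WT. The organ of origin was not tested. The 11 measured neutrophil markers summed to between 8.53 and 9.07 in MyD88-ko and between 11.29 and 11.84 in WT, and the 7 classical monocyte markers to between 10.65 and 11.30 and between 12.02 and 12.47. Of the neutrophil markers 1 was above the limit on all arrays and 3 on none, so their sums include signal under the limit. Of the monocyte markers 5 were above it on all arrays. At an adjusted limma p under 0.05, 5 of the 11 neutrophil and 1 of the 7 monocyte markers were lower in MyD88-ko, against 0.185% of all genes. No macrophage marker passed. The 8 dendritic cell markers summed to between 8.08 and 8.96 in MyD88-ko and between 9.06 and 9.64 in WT. Of these 8, 6 were above the limit on no array, and none passed. Melanoma markers were strong in both groups, between 12.03 and 12.52 in MyD88-ko and between 11.95 and 12.46 in WT, although tumour cells lack CD45. None of the 5 B cell or 7 T and NK cell markers measured was above the limit on any array. All these cell types make respiratory chain transcripts. In such bulk samples fewer cells of a type and less RNA per cell cannot be told apart, and the part of these markers in the results was not tested. Myd88 itself was lower on the MyD88-ko arrays (7.73, 7.01 and 7.58) than on the WT arrays (8.46 and 8.40), without passing (limma, adjusted p = 0.179).

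Complex I, the NADH dehydrogenase, held subunits with the largest differences in both directions. Of its 18 members 10 had a positive difference, with a median of 0.13 and a range from -0.67 to 0.48. Ndufa9, an accessory subunit near the ubiquinone site, had values of 7.60, 7.65 and 7.56 in MyD88-ko and of 7.00 and 7.25 in WT. All MyD88-ko arrays were above both WT arrays, and the group means of 7.61 ± 0.05 (SD, n = 3) and 7.12 ± 0.17 (SD, n = 2) were 1.40-fold apart. The log2 difference of 0.48 ± 0.12 (SE) did not pass (limma, adjusted p = 0.204).

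Ndufs7, a core subunit that carries the last iron-sulphur cluster before ubiquinone, was at 7.17, 7.53 and 7.26 in MyD88-ko and at 6.81 and 6.94 in WT. The groups did not overlap, and both WT values were under the background limit, so the difference is a bound of at least 1.30-fold (limma, adjusted p = 0.285). Ndufa10, an accessory subunit of the membrane arm, was at 7.15, 7.33 and 7.43 in MyD88-ko and at 6.84 and 7.05 in WT, again without overlap. Its log2 difference was 0.36 ± 0.13 (SE; limma, adjusted p = 0.341). These were the 3 subunits with an unadjusted p under 0.05 in the higher direction.

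Ndufs4 ran the other way. This accessory subunit, needed for a stable NADH-oxidising arm, was at 5.69, 5.34 and 5.55 in MyD88-ko, against 6.66 and 5.73 in WT. The groups did not overlap, but the gap of 0.93 between the WT arrays exceeded the log2 difference of -0.67 ± 0.27 (SE; limma, adjusted p = 0.395). All 5 values were under the background limit, so no fold is given. Without WT replicate 1 the difference of Ndufs4 was -0.21, and without WT replicate 2 it was -1.14.

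The core subunits, which carry the flavin and iron-sulphur clusters or lie along the electron path, had a median difference of 0.16 over the 6 measured here, a split made after the values were seen. Besides Ndufs7, Ndufs8 was at 7.27, 7.72 and 7.27 in MyD88-ko and at 6.99 and 7.16 in WT, with no overlap and a difference of 0.35. Ndufv1, which binds NADH and the flavin, had a difference of 0.17 and Ndufs3 of 0.16. Ndufs1 and Ndufv2, both iron-sulphur proteins and both under the limit on all arrays, had differences of -0.01 and -0.03. Ndufv2 was the steadiest of them, at 6.27, 6.27 and 6.26 in MyD88-ko and at 6.35 and 6.24 in WT.

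The 12 accessory subunits of complex I in the list had a median of 0.02, with 6 positive and 6 negative. Of those not yet given, Ndufb8, Ndufb10, Ndufa8 and Ndufb5 had differences of 0.34, 0.24, 0.14 and 0.13, and only Ndufa8 had groups that did not overlap. For Ndufb8, WT replicate 1 was at 5.69 and the other 4 arrays lay between 6.26 and 6.53. Ndufa2, Ndufa1, Ndufa5, Ndufb3 and Ndufb9 had differences of -0.30, -0.22, -0.19, -0.10 and -0.09, and WT replicate 1 was the highest array for each. For Ndufa5 the WT arrays were at 6.76 and 5.87, on either side of the MyD88-ko arrays at 6.15, 6.22 and 6.00.

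**Figure D2:**
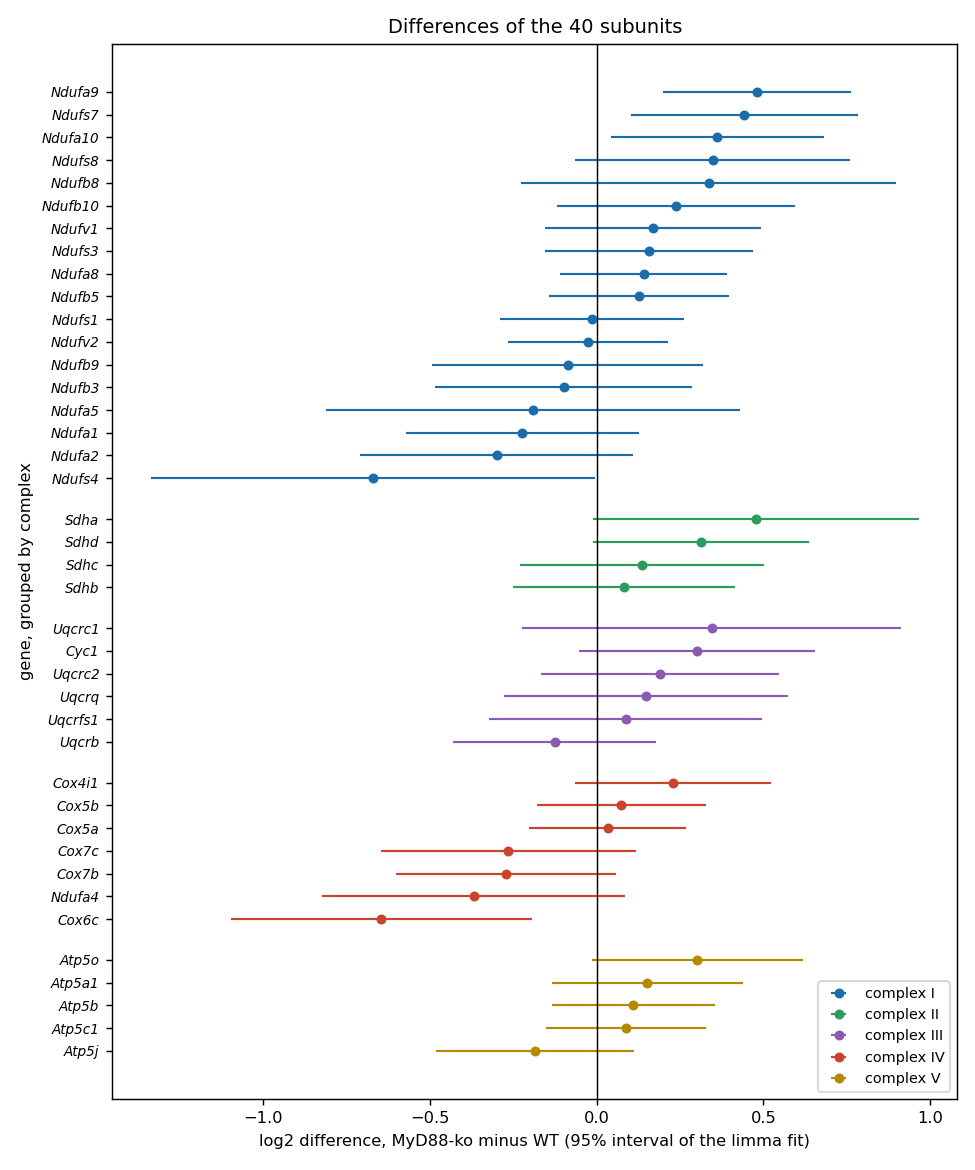
Log2 difference, MyD88-ko minus WT, of each subunit, with the 95% interval of the limma fit as a horizontal line; colours mark the complex. Intervals of 5 subunits leave out 0 (Ndufa9, Ndufs7 and Ndufa10 above it, Ndufs4 and Cox6c below it), and none of the 40 passed after adjustment over all genes.

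Promoter sequence was examined because nuclear subunit genes are known to share binding sites for a few transcription factors, among them NRF-1, the ETS factor GABP, YY1, CREB and ERR-alpha. RefSeq windows of assembly GRCm38.p6, from 250 bases before to 50 after an annotated start, were on hand for 29 of the 40 subunits (32 windows). The motifs were picked after the expression values were seen, and both strands were searched. The NRF-1 motif GCGCANGCG was in 9 of the 32 windows (28.1%), against 6.25% of all 32851 windows. The GABP motif CCGGAAG was in 5 (15.6%, against 8.86%), the cAMP response element TGACGTCA bound by CREB in 2 (6.25%, against 1.79%) and the ERR-alpha motif TCAAGGTCA in 1 (3.12%, against 0.423%). The NF-kB motif GGGANTTCC, of the factor that MyD88 signalling activates, was in 2 (Cox5b and Ndufs8; 6.25%, against 1.68%). Matches of different motifs did not overlap in these windows. A match describes letters only and does not show binding.

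The YY1 motif AAGATGGCG was in 4 windows (12.5%, against 1.4% of all windows). They belong to Atp5j, to Ndufa9 and Ndufs7, the complex I subunits with the largest positive differences, and to Ndufs4, the one with the largest negative difference. The 3 complex I stretches are shown, with the motif in capitals, because genes at both ends of the range share it. In this order it begins 30, 25 and 36 bases after the start, counting the start as base 1, and its letters contain ATG. They lie on GRCm38.p6 at chr6:126849096-126849125 (minus strand), chr10:80249463-80249492 (plus strand) and chr13:114388045-114388074 (minus strand).
Ndufa9: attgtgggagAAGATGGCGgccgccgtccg
Ndufs7: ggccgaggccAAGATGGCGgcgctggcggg
Ndufs4: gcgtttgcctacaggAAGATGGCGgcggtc

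Ndufa10 held the cAMP response element, 67 bases before its start. The 120 bases before the start, at chr1:92473759-92473878 (minus strand, GRCm38.p6), are shown with that element in capitals, as the third subunit with an unadjusted p under 0.05 in the higher direction.
Ndufa10: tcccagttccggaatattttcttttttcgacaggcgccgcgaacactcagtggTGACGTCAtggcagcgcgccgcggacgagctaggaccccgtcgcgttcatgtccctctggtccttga

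Complex II, succinate dehydrogenase, had positive differences for all 4 subunits, from 0.08 to 0.48 with a median of 0.22. It is the only complex that is also an enzyme of the tricarboxylic acid cycle and the only one encoded wholly in the nucleus. Sdha, the flavoprotein that oxidises succinate, was at 5.94, 5.62 and 6.27 in MyD88-ko and at 5.35 and 5.57 in WT. The groups did not overlap, all values were under the background limit, so that no fold is given, and the log2 difference was 0.48 ± 0.20 (SE; limma, adjusted p = 0.409). It was 0.31 without MyD88-ko replicate 3 and 0.10 with Y-linked genes as a term of the fit. Sdhd, a membrane anchor, was well above the limit at 7.84, 7.75 and 7.67 in MyD88-ko and at 7.28 and 7.60 in WT. Its groups did not overlap either, and the means of 7.75 ± 0.09 (SD, n = 3) and 7.44 ± 0.22 (SD, n = 2) were 1.24-fold apart (limma, adjusted p = 0.412). The log2 difference of 0.31 was 0.15 without WT replicate 1 and 0.47 without WT replicate 2. The other anchor, Sdhc, and the iron-sulphur subunit, Sdhb, had overlapping groups and differences of 0.14 and 0.08. WT replicate 1 was the lowest array for 3 of the 4 genes. The median was 0.16 without WT replicate 1 and 0.37 without WT replicate 2.

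The promoters of Sdha and Sdhd carry the NRF-1 motif. They are shown because these were the complex II genes whose groups did not overlap. Capitals in Sdha mark 3 NRF-1 matches, which begin at -98, -55 and -10. Capitals in Sdhd mark 1 NRF-1 match at -79 and 1 GABP match at -46, the latter on the opposite strand. Each stretch covers bases -120 to -1 before the start on the minus strand of GRCm38.p6, at chr13:74350241-74350360 for Sdha and chr9:50603850-50603969 for Sdhd.
Sdha: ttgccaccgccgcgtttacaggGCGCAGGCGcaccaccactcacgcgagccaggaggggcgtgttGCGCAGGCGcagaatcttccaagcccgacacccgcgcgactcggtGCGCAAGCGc
Sdhd: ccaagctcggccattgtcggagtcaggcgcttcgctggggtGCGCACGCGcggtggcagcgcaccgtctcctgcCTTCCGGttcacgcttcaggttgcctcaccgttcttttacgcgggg

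Complex III, the cytochrome bc1 complex, had positive differences for 5 of 6 subunits and a median of 0.17, but groups overlapped for every one of them. Cyc1, which encodes cytochrome c1, had the lowest p of the complex. It was at 4.85, 4.75 and 4.62 in MyD88-ko and at 4.62 and 4.26 in WT, all under the limit, and MyD88-ko replicate 3 and WT replicate 1 had the same value. The log2 difference of Cyc1 was 0.30 ± 0.15 (SE; limma, adjusted p = 0.472). Unlike most of these genes it was larger without WT replicate 1, at 0.48, and was 0.12 without WT replicate 2.

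The core proteins Uqcrc1 and Uqcrc2 had differences of 0.34 and 0.19. Uqcrc1 was at 7.20, 7.77 and 7.40 in MyD88-ko and at 6.82 and 7.41 in WT, so WT replicate 2 lay among the MyD88-ko arrays and WT replicate 1 below them all. Uqcrc2 showed the same arrangement under the limit, at 6.31, 6.53 and 6.31 in MyD88-ko and at 6.01 and 6.38 in WT. Without WT replicate 1 the differences were 0.05 for Uqcrc1 and 0.0092 for Uqcrc2, and without WT replicate 2 they were 0.64 and 0.37. Uqcrfs1, the Rieske iron-sulphur protein, and the small subunit Uqcrq had differences of 0.09 and 0.15. Uqcrb, another small subunit, was the member with a negative difference (-0.13), at 9.42, 9.63 and 9.57 in MyD88-ko and at 9.79 and 9.55 in WT. Its difference was -0.0065 without WT replicate 1 and -0.25 without WT replicate 2. The median of complex III was 0.03 without WT replicate 1 and 0.27 without WT replicate 2.

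Complex IV, cytochrome c oxidase, was the only complex with a negative median, -0.27 over 7 subunits, of which 4 were negative. All 7 were above the background limit on every array. Cox6c, a small membrane subunit, was at 7.93, 8.27 and 8.06 in MyD88-ko and at 8.99 and 8.48 in WT. The groups did not overlap, and the means of 8.09 ± 0.17 (SD, n = 3) and 8.73 ± 0.36 (SD, n = 2) were 1.56-fold apart. The log2 difference of -0.65 ± 0.19 (SE) had an unadjusted p of 0.013 and did not pass (limma, adjusted p = 0.252). It was -0.39 without WT replicate 1 and -0.90 without WT replicate 2.

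Ndufa4, named for complex I but since assigned to complex IV, was at 7.69, 7.89 and 7.82 in MyD88-ko and at 8.46 and 7.87 in WT. WT replicate 2 lay among the MyD88-ko arrays, and the difference of -0.37 became -0.07 without WT replicate 1 and -0.67 without WT replicate 2. Cox7b, an X-linked subunit, was at 7.71, 7.52 and 7.44 against 7.96 and 7.71, with overlap and a difference of -0.27 (-0.15 without WT replicate 1). Cox7c was at 9.89, 9.87 and 9.91 in MyD88-ko and at 10.40 and 9.91 in WT, where WT replicate 2 exceeded the highest MyD88-ko array in the third decimal alone. WT replicate 1 was the highest array for all 4 of these genes.

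The larger regulatory subunits of complex IV did not share that direction. Cox4i1, which takes part in the response of the oxidase to ATP, was at 8.21, 8.30 and 8.10 in MyD88-ko and at 7.87 and 8.08 in WT, without overlap and with a difference of 0.23 (limma, adjusted p = 0.504), or 0.12 without WT replicate 1. Cox5a and Cox5b had differences of 0.03 and 0.07 and were among the steadiest of the 40, with SDs of 0.03 and 0.02 over the 3 MyD88-ko arrays. Without WT replicate 1 the median of complex IV was -0.02. It was -0.40 when WT replicate 2 was left out and -0.12 when Ndufa4 was counted in complex I.

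**Figure D3:**
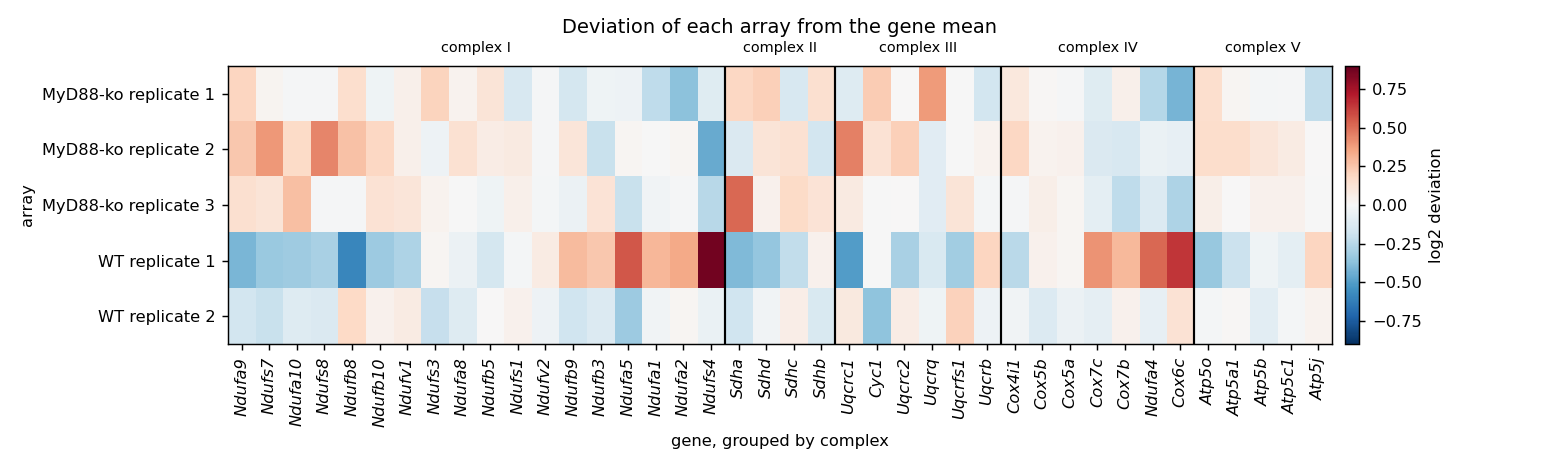
Deviation of each array from the mean of the 5 arrays (log2, red above and blue below) for the 40 subunits, grouped by complex and ordered by difference. WT replicate 1 has the strongest colours, above the mean for Ndufs4, Cox6c and Ndufa4 and below it for Ndufb8, Uqcrc1 and Ndufa9; WT replicate 2 is closer to the MyD88-ko arrays.

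Complex V, the ATP synthase, had positive differences for 4 of 5 subunits, with a median of 0.11. All 5 were above the background limit on every array. Atp5o, the stalk subunit that joins the catalytic head to the membrane part, was at 8.69, 8.71 and 8.60 in MyD88-ko and at 8.20 and 8.53 in WT. The groups did not overlap, and the log2 difference was 0.30 ± 0.13 (SE; limma, adjusted p = 0.419). It was 0.14 without WT replicate 1 and 0.47 without WT replicate 2.

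The subunits of the catalytic head were close in both groups. Atp5b, the catalytic beta subunit, was at 9.92, 10.04 and 9.98 in MyD88-ko and at 9.90 and 9.84 in WT, and Atp5c1, the rotating gamma subunit, at 8.84, 8.92 and 8.88 against 8.75 and 8.83. Both had groups that did not overlap, yet differences of only 0.11 and 0.09, with 95% intervals of -0.14 to 0.35 and -0.15 to 0.33. Atp5a1, the alpha subunit, was at 10.10, 10.23 and 10.08 in MyD88-ko and at 9.88 and 10.09 in WT, with overlap and a difference of 0.15 (0.05 without WT replicate 1 and 0.26 without WT replicate 2). Atp5j, a coupling factor of the stalk, ran the other way at 7.06, 7.28 and 7.27 against 7.47 and 7.31, without overlap and with a difference of -0.19 (limma, adjusted p = 0.584), or -0.11 without MyD88-ko replicate 1 and without WT replicate 1 alike. The median of complex V was 0.05 without WT replicate 1.

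**Figure D4:**
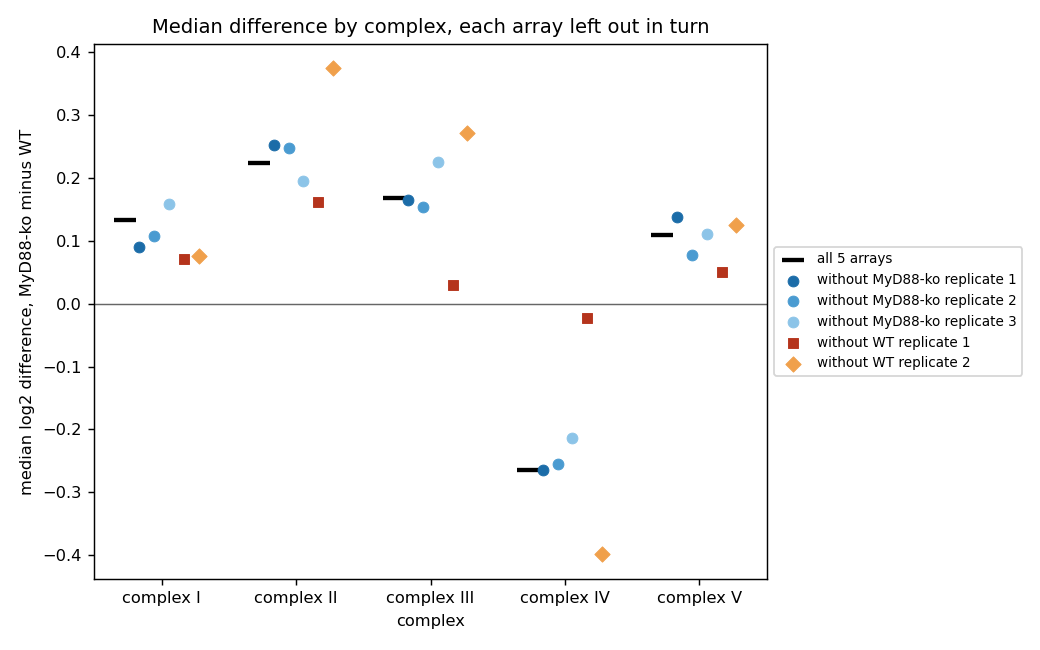
Median log2 difference, MyD88-ko minus WT, of the subunits of each complex, with all 5 arrays (black bar) and with each array left out in turn (coloured points). Leaving out WT replicate 1 brings complex IV from -0.27 to -0.02 and complex III from 0.17 to 0.03; no median changes sign.

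Subunits of the same complexes outside the 40 were about as often lower as higher in MyD88-ko. Of 36 further subunits 35 were measured, 18 with a positive difference, and their median was 0.0058. By complex the medians were -0.04 for complex I (17 genes), 0.13 for III (3), 0.03 for IV (5) and -0.04 for V (10). For complexes I, IV and V the sign was thus opposite to that of the listed subunits. The MyD88-ko arrays lay wholly above WT for 28.6% of these 35 and wholly below for 14.3%. The shares were 27.5% and 10% of the 40, and 14.8% and 12.9% of all genes. The lowest array was WT replicate 1 for 8.57% of the 35, against 47.5% of the 40. It was the highest for 40%, against 32.5%. None of the 35 passed over all genes (limma), and 1 higher and 1 lower had an unadjusted p under 0.05, against 6.16% and 6.39% of all genes. The higher one was Ndufa12, an accessory subunit of complex I, at 8.45, 8.53 and 8.38 in MyD88-ko and at 8.19 and 8.14 in WT, a difference of 0.29. The lower one was Uqcrh, the hinge protein of complex III, at 7.37, 7.55 and 7.59 against 8.72 and 7.99. Its difference of -0.85 ± 0.22 (SE; limma, adjusted p = 0.224) exceeded that of any of the 40, and WT replicate 1 was again its highest array. In the other direction or complexes the lowest p-values belonged to Ndufb4 (-0.28), Uqcr10 (0.14), Cox6a1 (0.10), Cox7a2 (-0.24), Atp5g1 (0.30) and Atp5h (-0.24).

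The tissue-specific and hypoxia-linked forms of subunits were dim. None of the 9 was above the limit on any array, so no fold is given for them. Ndufa4l2, the hypoxia-induced relative of Ndufa4, was at 4.28, 3.95 and 4.07 in MyD88-ko and at 3.77 and 3.64 in WT. Cox4i2, the hypoxia-linked form of Cox4i1, was at 4.64, 4.64 and 4.40 against 4.76 and 4.85. Their differences of 0.39 and -0.24 did not pass (limma, adjusted p = 0.303 and 0.485).

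The genes that build, feed and regulate the chain were measured as further lists, and none of their members passed over all genes. The 43 assembly factors, 37 of them above the limit on no array, had a median difference of 0.06 with 27 positive. At an unadjusted limma p under 0.05 there were 2 higher and 4 lower, against 6.16% and 6.39% of all genes. Cox10, an enzyme of the heme a pathway of complex IV, had a difference of 0.36, and the copper chaperone Cox17 one of -0.67, at 6.04, 6.23 and 6.28 in MyD88-ko and at 7.16 and 6.55 in WT. Ecsit, which is both a complex I assembly factor and a partner of Toll-like receptor signalling, had overlapping groups and a difference of 0.02, at 5.33, 5.13 and 5.47 against 5.05 and 5.52, all under the limit. The 13 genes of mobile carriers, ubiquinone synthesis, ubiquinone-linked dehydrogenases and the ATP synthase inhibitor had a median of 0.07. Dhodh, the pyrimidine-synthesis enzyme that passes electrons to ubiquinone, was at 6.07, 5.93 and 6.15 in MyD88-ko and at 5.61 and 5.33 in WT, under the limit and without overlap (difference 0.58, limma adjusted p = 0.189). Gpd2, the mitochondrial glycerol phosphate dehydrogenase, had a difference of -0.34.

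The 15 genes of the tricarboxylic acid cycle and pyruvate dehydrogenase had a median of 0.07 with 12 positive. Ogdh, a subunit of the oxoglutarate dehydrogenase complex, was at 8.63, 8.85 and 8.71 in MyD88-ko and at 8.03 and 8.47 in WT (difference 0.48, limma adjusted p = 0.299), and Dld, the shared dihydrolipoamide dehydrogenase, had a difference of -0.15. The 76 mitochondrial ribosomal proteins had a median of 0.06 with 47 positive. Their lowest p-values belonged to Mrpl33 (-0.95), with WT arrays at 8.57 and 7.93 above MyD88-ko arrays at 7.24, 7.44 and 7.23, and to Mrpl34 (0.37, under the limit).

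Regulators of mitochondrial biogenesis had a median of 0.0088 over 15 genes. Nrf1, which encodes the factor NRF-1, was at 7.28, 7.39 and 7.39 in MyD88-ko and at 7.43 and 7.31 in WT, a difference of -0.02 with a 95% interval of -0.27 to 0.23. Gabpa, the DNA-binding subunit of GABP, had a difference of -0.26 and groups that did not overlap, at 7.41, 7.68 and 7.84 against 7.91 and 7.90. Tfam, the packaging and transcription factor of mitochondrial DNA, was under the limit on all arrays with a difference of -0.10. The coactivator Ppargc1b was at 5.96, 6.17 and 6.18 in MyD88-ko and at 5.45 and 5.60 in WT, under the limit and without overlap (difference 0.58, limma adjusted p = 0.163). Its relative Ppargc1a varied more than the groups differed, at 6.72, 6.57 and 7.57 against 7.19 and 6.05. Polg2, the accessory subunit of the mitochondrial DNA polymerase, had the lowest p of these lists, at 4.58, 4.30 and 4.96 in MyD88-ko and at 5.61 and 6.09 in WT, under the limit on all arrays (difference -1.24, limma adjusted p = 0.144). Subunits encoded in mitochondrial DNA have no named row and were not analysed here.

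**Figure D5:**
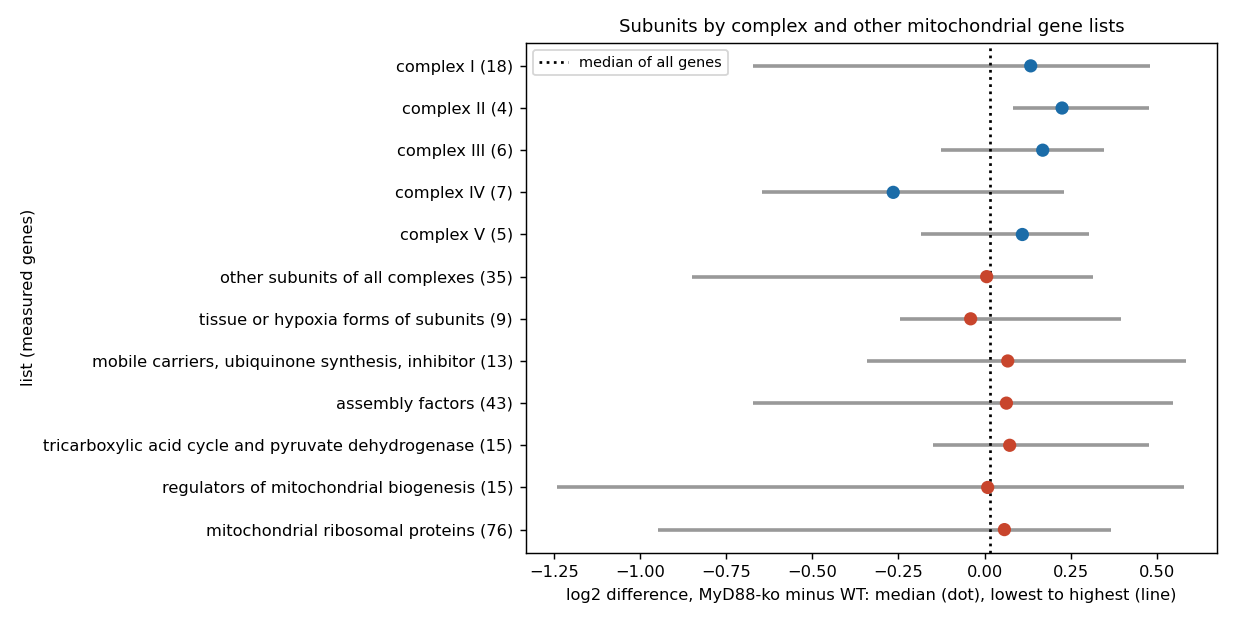
Median (dot) and lowest to highest (line) log2 difference, MyD88-ko minus WT, of the 40 subunits by complex (blue dots) and of the other mitochondrial gene lists (red dots), with the number of measured genes in brackets and the median of all genes, 0.02, as a dotted line. Every list spans 0 except complex II, and the medians of the other lists lie between -0.04 and 0.07.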

How the data were processed

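The authors deposited RMA values on the log2 scale. The submitters' processing notes name Expression Console 1.1 by Affymetrix as the tool. RMA corrects background, quantile-normalizes between arrays and summarizes the probes of a probe set, which can compress differences. Per the labels, 100 ng of total RNA was labelled. For the probe sets, no genome build was given in the sources used here. Arrays give no read depth, and their number limits the precision. Array medians lay between 4.33 and 4.42, and arrays correlated at Pearson r between 0.969 and 0.992.

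Of 28846 rows, 19572 had 1 gene symbol. All identifiers matched the RefSeq table of GRCm38.p6 and 0 symbols changed. The probe set with the highest mean was kept for each of 19505 genes. Under R 4.3.3, limma 3.58.1 was run on all genes (functions lmFit and eBayes, no trend, no filter, 3 residual degrees of freedom). Genotype was its single term, and a gene passed at a Benjamini-Hochberg adjusted p under 0.05. The fit was tested on simulated data. Alternatives covered normalization, filters on level, probe set choice, moderation, array weights, a replicate block, Y-linked genes, thresholds and each array left out. A fold is given only where a group was above the 95th percentile of the 5222 negative controls.

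The members, lists and motifs were chosen with earlier results of these data known. Values on every array are given for the 3 members of lowest p in each complex (2 in complex II) and the opposite member of lowest p. List members of lowest p in each direction are given by their difference, some with all arrays. Ecsit, Ndufa4l2, Cox4i2, Tfam, Nrf1, Gabpa, Ppargc1a and Ppargc1b were also named by rule. Values of other members were chosen after they were seen. Many of these genes have pseudogene copies, and cross-hybridization was not examined.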

Additional observations from a re-analysis of the deposited data

How the results depend on the processing

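With limma, 0 of 40 subunits passed under each alternative run, including an adjusted p threshold of 0.1. This says little for the fits with Y-linked genes or without 1 array, where 0 or 1 of all genes passed; in the others 15 to 70 did. At an unadjusted limma p under 0.05, quantile normalization again gave 7 higher and 1 lower subunits, against 3 and 2 in the main fit. Over all 19505 genes that run gave 2735 in either direction, against 2449 in the main fit. Between 21 and 28 subunits had a positive difference, where 21 is from the 29 that were left by a filter on background. The differences of the 17 named subunits kept their sign in all runs that measured them. Each array left out in turn gave median differences of 0.0532 to 0.113 for all 40 subunits, 0.071 to 0.159 for complex I, 0.162 to 0.375 for complex II, 0.0297 to 0.272 for complex III, -0.399 to -0.0233 for complex IV and 0.0504 to 0.138 for complex V, with 24 to 26 positive. The lowest values for all 40 subunits and for complexes I, II, III and V, and the one nearest 0 for complex IV, came without WT replicate 1. Counts of subunits with groups that did not overlap, run without each array after the data were seen, were 13 to 21 higher and 4 to 13 lower. They must be read against 20.1% to 29.9% and 17% to 29.7% of all genes, since fewer arrays separate more easily. Averaged over 3 genes, Y-linked signal lay between 4.60 and 5.51 on the MyD88-ko arrays and at 5.89 and 6.03 on the WT arrays. This average was under the background limit on every array, and Y-linked signal cannot be cleanly told apart from genotype. With it in the fit, the median was 0.06 for complex II and 0.33 for complex III, and the difference of Sdha was 0.10, of Ndufa10 0.23, of Uqcrc2 0.31, of Cox4i1 0.37, of Cox7b -0.16, of Atp5a1 0.24 and of Atp5j -0.28. Counting Ndufa4 with complex I moved complex IV to -0.12. The replicate numbers are shared by 2 pairs of arrays whose deviations from their group means correlated at 0.059 and 0.105. With 2 WT arrays the WT deviations mirror each other, so the 2 correlations are not independent. They cannot show whether same-numbered arrays were handled together. With the replicate block, which takes no difference from MyD88-ko replicate 3, 0 subunits passed and the median of all 40 was 0.10, with 26 positive, while 70 in place of 37 of all genes passed. Rescaling the arrays moved the median of all genes to between -0.008 and 0.05.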

Other observations

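Cytosolic ribosomal protein genes, a list added after the values were seen, were also highest, for the most part, on WT replicate 1. Of 54 genes, all above the background limit on every array, 47 had a negative difference and WT replicate 1 was the highest array for 43. Their median difference was -0.23 and their median deviation on WT replicate 1 was 0.26, against 0.29 for complex IV and -0.02 and -0.06 on WT replicate 2. None passed over all genes (limma), and 1 higher and 14 lower had an unadjusted p under 0.05. Of the 2992 genes above the limit on every array, 331 higher and 468 lower did. WT replicate 1 was the highest array for 27.6% of those 2992. Mrpl33, Cox17 and Uqcrh, each the list member of lowest p in the lower direction, also had WT replicate 1 as the highest array. So did Ndufb4, Cox7a2, Atp5h, Gpd2 and Dld, while Polg2 and Cox4i2, picked by the same rule, had WT replicate 2 highest. Such picks favour a WT array as the highest: it was WT replicate 1 for 48.4% of all genes with a negative difference. The part of WT replicate 1 in the complex IV values was not tested beyond leaving it out.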
